A study of Saccharomyces cerevisiae with 16 samples.

Results

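The genes of 6 cell wall mannoproteins and 1 water channel of budding yeast (*Saccharomyces cerevisiae*) were followed across ribosome footprints and mRNA: TIR1 (YER011W), TIR2 (YOR010C), TIR3 (YIL011W), TIR4 (YOR009W), CWP1 (YKL096W), CWP2 (YKL096W-A) and AQY2 (YLL052C). They were chosen by name, with their levels in these libraries already known, and are 7 of the 5574 listed features. Their levels and differences are therefore described without a test. Tests are given for other genes only, from lists that were also drawn up with earlier results of these data known. The strains were can1Δ, which lacks the arginine permease of the plasma membrane, rpl22aΔ, which lacks a protein of the large ribosomal subunit, tor1Δ, which lacks one of the Tor kinases of the nutrient-sensing complex TORC1, and the wild type (WT) BY4741 in which these deletions were made. BY4741 is a laboratory strain descended from S288C, and all 4 strains were grown in standard YPD, a rich glucose medium, to an optical density (OD600) of 0.5, with cycloheximide, which arrests ribosomes, in the lysis buffer. Footprints, the mRNA pieces that ribosomes protect from nuclease, came from 3 can1Δ, 2 rpl22aΔ, 2 tor1Δ and 3 WT libraries, and mRNA from 2 can1Δ, 1 rpl22aΔ, 1 tor1Δ and 2 WT libraries. The study's title concerns the long replicative life of cells without Can1 and the translation of stress genes in them.

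Yeast anchors mannoproteins to the glucan of its cell wall, most of them through what remains of a glycosylphosphatidylinositol (GPI) anchor, and exchanges them with growth conditions. Cwp1 and Cwp2 are major wall proteins of aerobic cells, while the serine- and alanine-rich Tir proteins of the Tip1/Srp1 family are known for induction by cold shock and by lack of oxygen, when the sterol-sensing activator Upc2 is active and the heme-dependent repressor Rox1 is lost. Aqy2 is an aquaporin, a plasma membrane water channel. In S288C and many other laboratory strains a small deletion shifts its reading frame, so that the annotation divides the gene into AQY2 and the frame YLL053C that follows it.

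The sequence at the break of AQY2 is shown because the footprints of its 2 parts differed, as given below. AQY2 lies on the minus strand of chromosome XII, at chrXII:35912-36361 of build R64. Its coding sequence overlaps that of YLL053C by 50 bases, chrXII:35912-35961, in another frame. In the 110 bases below, chrXII:35882-35991 on the minus strand, capitals mark the start codon of YLL053C and, after it, the stop codon of AQY2.
AQY2 and YLL053C: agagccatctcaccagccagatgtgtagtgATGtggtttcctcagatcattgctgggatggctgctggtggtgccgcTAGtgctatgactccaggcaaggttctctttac

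TIR1 and TIR2 are shown next because they share a stretch that short reads cannot divide. TIR1 lies at chrV:175248-176012 on the plus strand, and TIR2 at chrXV:346195-346950 on the minus strand. The longest identical stretch of their coding sequences, in capitals, holds 40 bases, with 20 bases of each gene on either side.
TIR1, chrV:175447-175526, plus strand: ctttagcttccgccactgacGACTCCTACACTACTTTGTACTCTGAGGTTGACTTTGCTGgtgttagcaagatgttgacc
TIR2, chrXV:346672-346751, minus strand: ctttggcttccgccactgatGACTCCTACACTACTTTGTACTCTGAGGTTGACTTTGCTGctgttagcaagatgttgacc
Of the 28-base words of each gene, 19 occur elsewhere in the genome, each of them shared by TIR1 and TIR2. Inside TIR1 a serine- and alanine-coding unit also repeats, and 15.7% of its 28-base words occur more than once. The 142 bases at chrV:175675-175816 hold the longest repeat, 70 bases, with its second copy in capitals.
TIR1 repeat: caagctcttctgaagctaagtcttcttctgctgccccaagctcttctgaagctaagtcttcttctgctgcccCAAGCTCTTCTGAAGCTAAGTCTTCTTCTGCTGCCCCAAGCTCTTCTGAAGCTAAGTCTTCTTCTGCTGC
The sources used here do not state how reads with several matches were counted, so TIR1 and TIR2 are uncertain to that extent. Of the 28-base words of TIR4, 23.7% recur inside it, and of TIR3 2.81%, while no word of TIR3, TIR4, CWP1, CWP2 or AQY2 occurs elsewhere in the genome.

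The other genes lie at chrIX:333727-334536 (TIR3, plus strand), chrXV:344335-345798 (TIR4, plus), chrXI:261132-261851 (CWP1, plus) and chrXI:259253-259531 (CWP2, plus). Each of the 7 genes has a single coding exon, and AQY2 was the only one of the 7 whose coding sequence overlaps another in the annotation. TIR4 and TIR2 face each other across 396 bases, and CWP2 lies 1600 bases upstream of CWP1. Codons for serine, alanine or threonine, the residues in which such wall proteins are rich, made up between 41.4% (CWP1) and 56.1% (TIR3) of the codons of the 6 mannoproteins. The median of 6002 nuclear genes was 19.5%, and AQY2 had 18.8%.

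Sequence before the start codons of the TIR genes, CWP1 and AQY2 was searched for short motifs of factors known from anaerobic and stress regulation, in the window from −600 to −101 on both strands. The Upc2 and Ecm22 sterol element TCGTATA was found before TIR1 and TIR3, and in 7.3% of 5999 such windows. The Rox1 core ATTGTTC was found before TIR1 and TIR3, and in 11.6% of windows. The anaerobic element TCGTTNAG was found before TIR4 and CWP1 (5.17% of windows), and the Msn2 and Msn4 stress element AGGGG before CWP1 and AQY2 (35.2%). The Swi4 element CACGAAA was found before TIR2 (7.1%). These motifs share no letters in the matches printed here. Windows of 250 bases that hold the matches of TIR1, TIR3 and AQY2, the genes lowest in rpl22aΔ footprints, follow, 5′ to 3′ on the strand of the gene, with matches to the first 4 motifs in capitals (reverse matches appear as TATACGA and CCCCT).
TIR1, −600 to −351, chrV:174648-174897, plus strand: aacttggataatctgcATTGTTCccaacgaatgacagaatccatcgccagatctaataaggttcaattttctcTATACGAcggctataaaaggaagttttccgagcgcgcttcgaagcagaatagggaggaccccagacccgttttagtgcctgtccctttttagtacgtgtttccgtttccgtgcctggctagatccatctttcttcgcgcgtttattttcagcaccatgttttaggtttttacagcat
TIR3, −450 to −201, chrIX:333277-333526, plus strand: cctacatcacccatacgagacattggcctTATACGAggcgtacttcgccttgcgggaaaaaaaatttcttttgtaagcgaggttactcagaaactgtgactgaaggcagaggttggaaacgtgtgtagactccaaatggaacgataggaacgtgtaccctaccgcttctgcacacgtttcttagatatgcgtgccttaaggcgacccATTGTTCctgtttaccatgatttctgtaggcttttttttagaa
AQY2, −350 to −101, chrXII:36462-36711, minus strand: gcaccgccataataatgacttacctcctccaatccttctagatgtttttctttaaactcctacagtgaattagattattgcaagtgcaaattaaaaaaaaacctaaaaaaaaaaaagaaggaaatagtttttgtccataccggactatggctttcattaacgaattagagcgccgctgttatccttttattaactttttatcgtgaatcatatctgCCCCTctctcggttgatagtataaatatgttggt
A match describes these letters only.

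Levels are deposited RPKM, reads per kilobase of listed length per 1e6 reads, after scaling between libraries within an assay. In units of 1e6 reads, the libraries held between 2.52 and 8.70 for footprints and between 7.65 and 26.6 for mRNA. The share of reads on listed features was 76.4% in rpl22aΔ footprint replicate 2, and 80.6% to 81.7% in the other footprint libraries. The deleted genes were near absent in their own strains: CAN1 reached at most 0.261 RPKM in can1Δ libraries against at least 13.5 in the others, RPL22A 17.4 against 2718, and TOR1 0.0827 against 3.39. Of the mating-type a markers STE2 and BAR1 were present in every library, at 64.7 RPKM or more, and MFA1 and MFA2 were listed at 0. The mating-type alpha markers MFALPHA1, MFALPHA2 and STE3 stayed at or below 1.52 RPKM, and LEU2 and URA3, which BY4741 lacks, were listed at 0. Footprint libraries of 1 strain correlated at 0.980 to 0.991 (Pearson, 3623 genes at 10 RPKM or more). Nothing in the labels tells if replicates came from separate cultures, so errors and p-values cover the spread between these libraries, which may be technical. In bulk cultures, expression in fewer cells and less RNA per cell cannot be told apart.

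In WT the 7 genes covered a wide range of levels, with CWP2 far above the others. CWP2 averaged 4978 ± 1049 RPKM in WT footprints (SD, n = 3), above 99.6% of listed features. TIR1 averaged 89.3 ± 16.7 and CWP1 87.0 ± 7.8 RPKM, and their libraries overlapped. TIR3 followed at 36.5 ± 8.5 and AQY2 at 7.82 ± 0.25 RPKM. TIR2 averaged 1.44 ± 0.18 and TIR4 1.20 ± 0.52 RPKM and were not separated from each other. In WT mRNA the order was CWP2 (2915 RPKM), CWP1 (30.2), TIR1 (17.7), TIR3 (10.6), AQY2 (7.88), TIR2 (3.31) and TIR4 (0.853), and only TIR3 and AQY2 overlapped among neighbours in that order (n = 2). CWP2 gave between 81.1% and 89.1% of the footprint reads of the 7 genes in a library. TIR2 and TIR4 had at most 12 footprint reads in any library and did not pass the filter on low values, so 5 of the 7 genes entered the fit of footprints and all 7 that of mRNA.

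TIR1 encodes a wall mannoprotein induced by cold and lack of oxygen, and its footprints were lowest by far in rpl22aΔ. They stood at 17.0 and 14.8 RPKM in the rpl22aΔ libraries, 114, 104 and 76.7 in can1Δ and 151 and 99.7 in tor1Δ, against 77.2, 108 and 82.3 RPKM in WT. The 2 rpl22aΔ libraries were the lowest of all 10, and the other strains overlapped. The difference from WT was −2.41 ± 0.22 in log2(RPKM + 1) for rpl22aΔ (SE, n = 2 and 3), a ratio of means of 0.178. Of the 4900 genes fitted, 3 had a more negative difference. For tor1Δ it was 0.47 ± 0.22 and for can1Δ 0.13 ± 0.19, and the libraries of either strain overlapped those of WT.

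The mRNA of TIR1 was also low in rpl22aΔ. It stood at 5.02 RPKM in the single rpl22aΔ library (86 reads), 15.2 and 18.9 in can1Δ and 31.7 in tor1Δ, against 18.5 and 16.9 RPKM in WT. The rpl22aΔ library was the lowest and the tor1Δ library the highest of the 6. The differences from WT were −1.64 in rpl22aΔ and 0.81 in tor1Δ, each resting on 1 library and without a replicate check, and −0.06 ± 0.21 in can1Δ (SE, n = 2 and 2).

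TIR3, a second mannoprotein of the same family that is needed for growth without oxygen, was also lowest in rpl22aΔ, and lower in can1Δ than in WT. Its footprints were 13.1 and 16.9 RPKM in rpl22aΔ, 22.5, 29.2 and 23.4 in can1Δ, 35.3 and 37.8 in tor1Δ, and 33.8, 46.1 and 29.7 in WT. No rpl22aΔ or can1Δ library reached the lowest WT library, while tor1Δ lay within the WT range. The differences from WT were −1.21 ± 0.19 for rpl22aΔ (n = 2 and 3), −0.51 ± 0.17 for can1Δ (n = 3 and 3) and 0.02 ± 0.19 for tor1Δ (SE, n = 2 and 3). In mRNA, TIR3 held 6.25 RPKM in rpl22aΔ, 4.66 and 10.04 in can1Δ, 12.03 in tor1Δ and 12.8 and 8.38 in WT. The rpl22aΔ value was below both WT values, and the can1Δ values overlapped them, with a difference of −0.52 ± 0.23 (SE, n = 2 and 2).

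The ratio of TIR1 to TIR3 was lowest in rpl22aΔ as well. TIR1 footprints were 1.29 and 0.874 times those of TIR3 per length in rpl22aΔ, 5.05, 3.56 and 3.28 times in can1Δ and 4.27 and 2.64 times in tor1Δ, against 2.28, 2.35 and 2.77 times in WT. Every can1Δ library was above and every rpl22aΔ library below the WT range. In mRNA the ratio was 0.803 in rpl22aΔ, 2.63 in tor1Δ and 3.26 and 1.88 in can1Δ, against 1.45 and 2.02 in WT.

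TIR2 and TIR4, the other anaerobic mannoproteins of the group, were near the detection limit in footprints. TIR2 held between 1 and 12 footprint reads a library, at 2.06, 2.00 and 0.452 RPKM in can1Δ, 1.00 and 1.25 in rpl22aΔ, 2.30 and 1.82 in tor1Δ and 1.52, 1.58 and 1.24 in WT. Summed over libraries, the ratio to WT was 0.737 in rpl22aΔ (exact 95% interval 0.271 to 1.85), 1.17 in can1Δ (0.565 to 2.48) and 1.36 in tor1Δ (0.582 to 3.12). These intervals, as all others here, cover counting error only, and no difference was detectable at this depth.

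TIR4 held 9, 0 and 0 footprint reads in the can1Δ libraries, 7 and 2 in rpl22aΔ, 4 and 1 in tor1Δ and 7, 10 and 5 in WT. A count of 0 allows up to 0.481 RPKM in can1Δ replicate 2 and 0.652 in replicate 3, at 3 reads. The ratio of summed reads to WT was 0.379 in can1Δ (0.154 to 0.856), with all can1Δ reads in replicate 1, 0.565 in rpl22aΔ (0.229 to 1.28) and 0.387 in tor1Δ (0.114 to 1.05). In mRNA TIR4 was highest in rpl22aΔ, at 2.45 RPKM (86 reads), with 0.424 and 1.55 in can1Δ and 1.42 in tor1Δ, against 0.563 and 1.14 RPKM in WT. TIR2 mRNA was likewise highest in rpl22aΔ, at 4.71 RPKM (80 reads), with 1.64 and 3.92 in can1Δ and 2.78 in tor1Δ, against 4.22 and 2.41 RPKM in WT. The mRNAs of the 4 TIR genes in the rpl22aΔ library thus lay on both sides of the WT libraries, TIR1 and TIR3 below and TIR2 and TIR4 above. The WT libraries held only 5 and 42 reads of TIR4 and 18 and 42 of TIR2. With 1 rpl22aΔ library, the small excess of TIR2 has no replicate check.

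**Figure D1:**
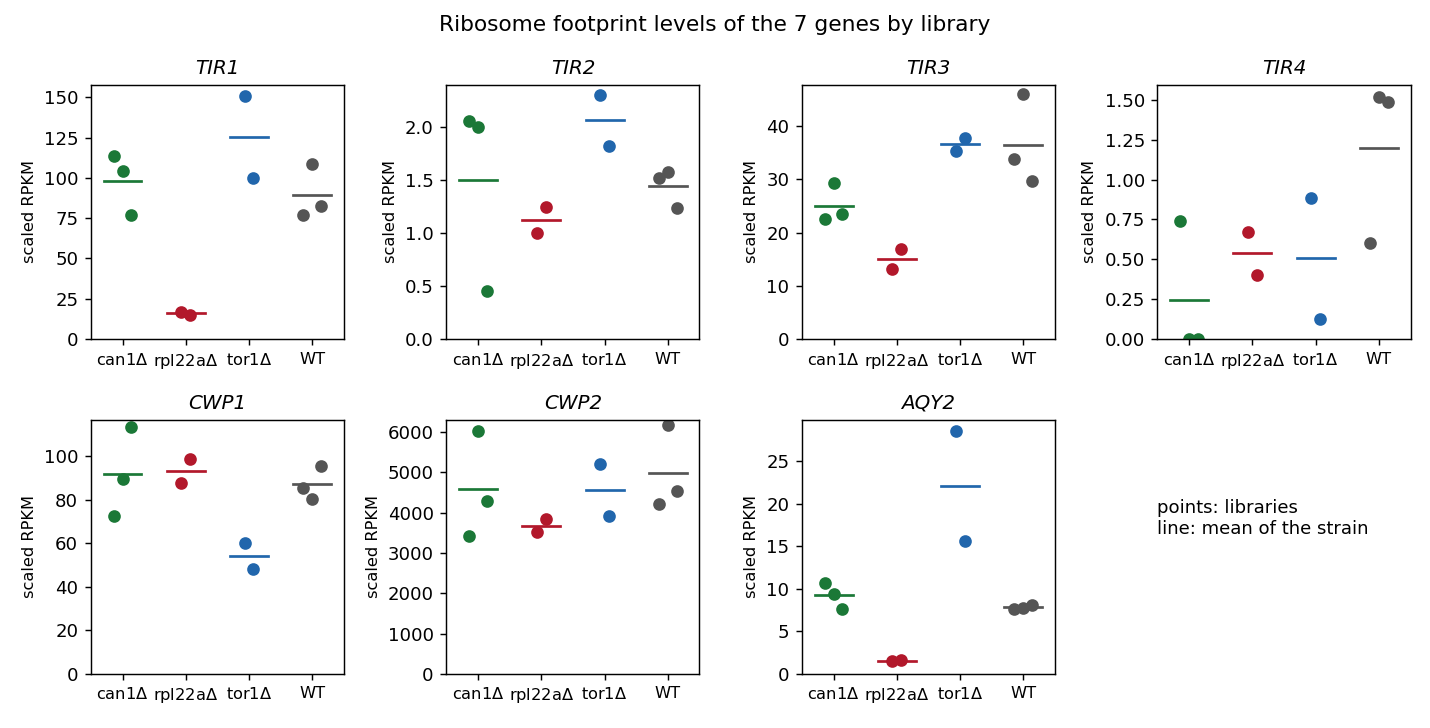
Scaled RPKM of ribosome footprints for each of the 7 genes (panels, each with its own linear axis from 0) in can1Δ (n = 3), rpl22aΔ (n = 2), tor1Δ (n = 2) and WT (n = 3); points are libraries and lines are strain means. TIR1, TIR3 and AQY2 are lowest in both rpl22aΔ libraries, CWP1 is lowest in both tor1Δ libraries, and AQY2 is highest in both tor1Δ libraries.

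**Figure D2:**
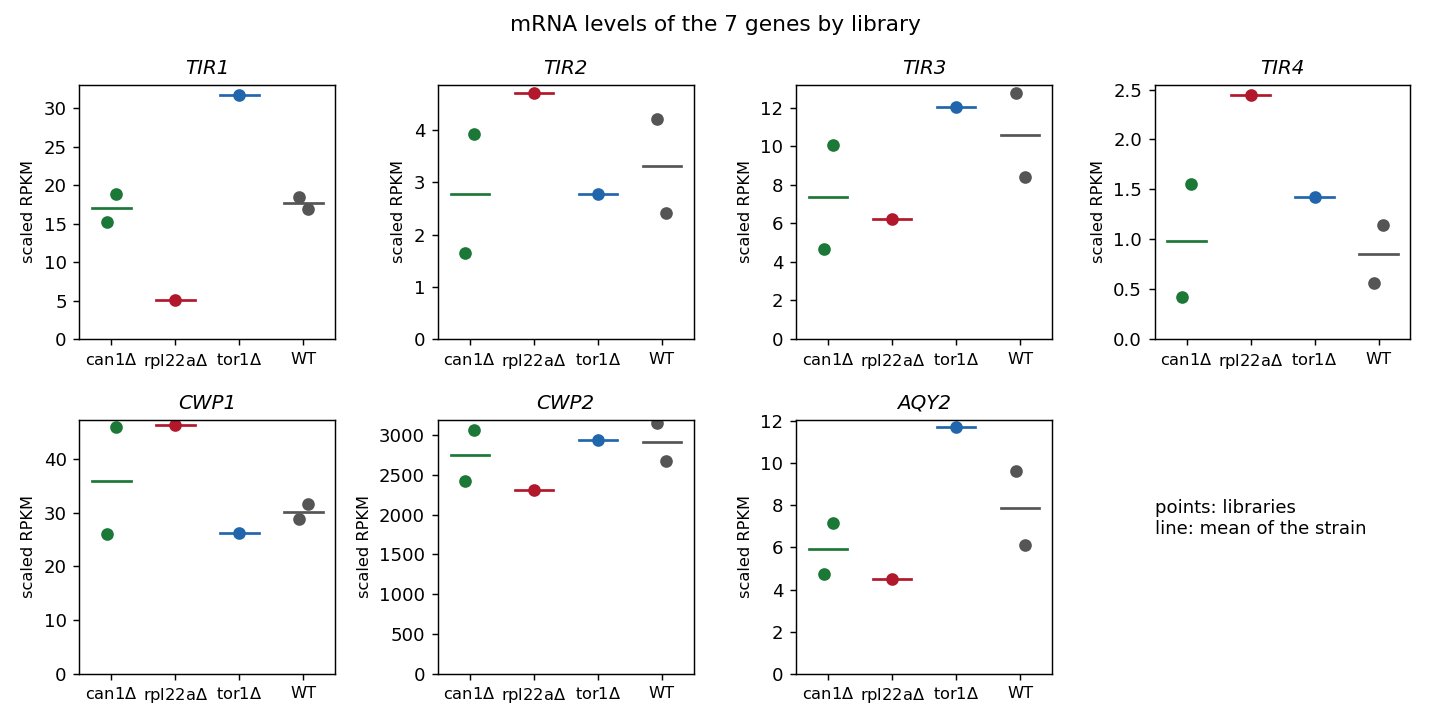
Scaled RPKM of mRNA for the same genes in can1Δ (n = 2), rpl22aΔ (n = 1), tor1Δ (n = 1) and WT (n = 2), drawn in the same way. TIR1 stands at 5.02 RPKM in rpl22aΔ and 31.7 in tor1Δ, against 18.5 and 16.9 in WT.

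CWP1, a mannoprotein concentrated at birth scars, did not share the low rpl22aΔ levels of TIR1 and TIR3. Its footprints were 87.7 and 98.5 RPKM in rpl22aΔ, 72.5, 89.6 and 113 in can1Δ and 59.96 and 48.3 in tor1Δ, against 85.3, 80.2 and 95.4 in WT. The tor1Δ libraries were the lowest of all 10, and the other 3 strains overlapped. The difference from WT was −0.68 ± 0.18 for tor1Δ (SE, n = 2 and 3), 0.10 ± 0.18 for rpl22aΔ and 0.06 ± 0.16 for can1Δ. In mRNA the rpl22aΔ library held 46.3 RPKM, the can1Δ libraries 26.0 and 45.9 and the tor1Δ library 26.3, against 28.7 and 31.6 in WT. The rpl22aΔ library lay above both WT libraries, a log2 difference of 0.60. Neither this nor the tor1Δ difference of −0.19 has a replicate check.

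CWP2, a small and very abundant wall mannoprotein, differed little between strains. Its footprints were 3528 and 3833 RPKM in rpl22aΔ, 5221 and 3931 in tor1Δ and 3425, 6028 and 4303 in can1Δ, against 4217, 6174 and 4544 in WT. Both rpl22aΔ libraries lay below the WT libraries, with a difference of −0.42 ± 0.23 (SE, n = 2 and 3), and 1 can1Δ library lay lower still. In deposited RPKM without scaling the rpl22aΔ libraries were not all below WT. The mRNA held 2314 RPKM in rpl22aΔ, 2933 in tor1Δ and 2425 and 3062 in can1Δ, against 3151 and 2679 in WT.

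The ratio of CWP2 to CWP1 set rpl22aΔ and tor1Δ apart from each other. CWP2 footprints were 40.2 and 38.9 times those of CWP1 per length in rpl22aΔ, 87.1 and 81.5 times in tor1Δ and 47.2, 67.3 and 38.0 times in can1Δ, against 49.4, 77.0 and 47.6 times in WT. The rpl22aΔ values lay below and the tor1Δ values above the WT range, and can1Δ spread over and below it. In each of the 3 same-number pairs of can1Δ and WT libraries, both this ratio and the scaled CWP2 level were lower in can1Δ. The CWP2 order in pair 2 depends on the scaling, since deposited RPKM was 5805 in can1Δ and 5774 in WT. The share of all genes lower in all 3 pairs was not computed, so nothing is read from this count.

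AQY2 footprints were lowest in rpl22aΔ and highest in tor1Δ. They stood at 1.502 and 1.56 RPKM in rpl22aΔ, 28.5 and 15.6 in tor1Δ and 10.6, 9.37 and 7.63 in can1Δ, against 7.65, 7.69 and 8.11 RPKM in WT. The rpl22aΔ libraries lay below and the tor1Δ libraries above all others. The read numbers behind these levels were small, 4 and 2 in rpl22aΔ, 33 and 32 in tor1Δ, 33, 15 and 9 in can1Δ and 22, 13 and 7 in WT, so counting error is large beside the close WT values. The ratio of summed reads to WT was 0.197 in rpl22aΔ (exact 95% interval 0.0686 to 0.467), 2.63 in tor1Δ (1.76 to 3.98) and 1.26 in can1Δ (0.829 to 1.92). The fitted differences were −1.80 ± 0.22 in rpl22aΔ, 1.33 ± 0.22 in tor1Δ and 0.20 ± 0.20 in can1Δ (SE). In the fit for rpl22aΔ, 18 of 4900 genes had a more negative difference.

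After scaling, AQY2 mRNA was lowest in rpl22aΔ and highest in tor1Δ, with smaller differences from WT in these strains than in footprints. The low rank depends on the scaling. In deposited RPKM can1Δ replicate 1 (4.72, 20 reads) lay below rpl22aΔ (5.03, 41 reads). The scaled level was 4.51 RPKM in rpl22aΔ, 11.7 in tor1Δ and 4.73 and 7.17 in can1Δ, against 9.66 and 6.11 in WT. The differences from WT were −0.66 in rpl22aΔ and 0.55 in tor1Δ, each from 1 library, and −0.35 ± 0.24 in can1Δ (SE, n = 2 and 2).

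The 2 parts of the broken aquaporin gene, printed at its junction above, had like mRNA levels and unlike footprint levels. Over all 6 mRNA libraries YLL053C had 266 reads and AQY2 214, a ratio per listed length of 1.21 (exact 95% interval 1.01 to 1.46), and the ratio lay between 1.03 and 1.41 in every library. Over all 10 footprint libraries YLL053C had 19 reads and AQY2 170, a ratio of 0.109 (0.0640 to 0.176). YLL053C had 0 and 1 footprint reads in rpl22aΔ, 6 and 4 in tor1Δ and 2, 3 and 2 in can1Δ, against 1, 0 and 0 in WT, where AQY2 had 42 reads in all. Relative to WT the summed reads of YLL053C were 17.0 times as many in tor1Δ (2.42 to 738) and 6.48 times in can1Δ (0.833 to 292), intervals as wide as the single WT read makes them. The counting of reads in the shared 50 bases is not stated.

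**Figure D3:**
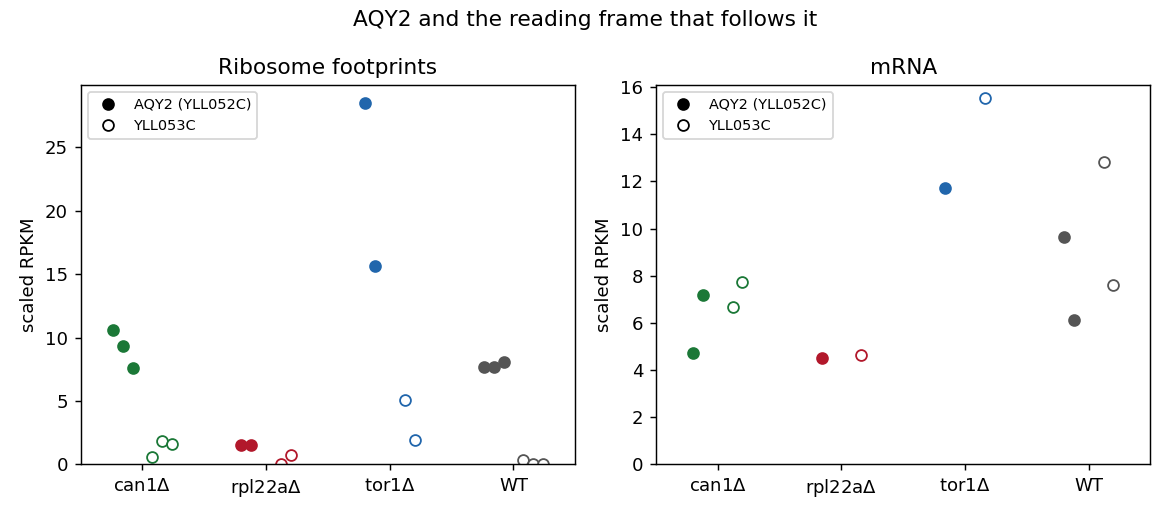
Scaled RPKM of AQY2 (filled) and YLL053C (open) by library in footprints (left) and mRNA (right), for can1Δ, rpl22aΔ, tor1Δ and WT, on linear axes from 0. The 2 frames lie close together in mRNA, and YLL053C lies below AQY2 in every footprint library.

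Set side by side, 4 of the 5 fitted genes (TIR1, TIR3, CWP2 and AQY2) had both rpl22aΔ footprint libraries below all 3 WT libraries, as had 25% of all genes fitted. TIR1, TIR3 and AQY2 were also below all 8 other footprint libraries, as were 18.1% of all genes. In tor1Δ AQY2 had both libraries above WT (12.1% of all genes) and CWP1 had both below (12.6%). In can1Δ TIR3 had all 3 libraries below WT (3.9% of all genes) and no gene of the 5 had all 3 above (4.53%). In mRNA the rpl22aΔ library was below both WT libraries for 4 of 7 genes, TIR1, TIR3, CWP2 and AQY2, against 36.7% of 5281 genes. The 3 comparisons share their WT libraries. Since the genes were chosen with these levels known, the shares of all genes are given as background, and nothing is read from the counts.

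Short genes as a class stood higher in rpl22aΔ footprints. In rpl22aΔ footprints the median difference from WT was 0.34 for 212 genes with a listed length under 250 bases, the class of CWP2 (179 bases), and 0.33 for 481 genes of 250 to 499 bases, the class of AQY2 (350 bases). It was 0.20 for 636 genes of 500 to 749 bases, the class of TIR1 (665), TIR3 (710) and CWP1 (620). TIR1, TIR3 and AQY2 lay below the 5th percentile of their classes, which was −0.49 for 250 to 499 and for 500 to 749 bases. CWP1 (0.10) lay above that value, and CWP2 (−0.42) above the −0.66 of its class.

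**Figure D4:**
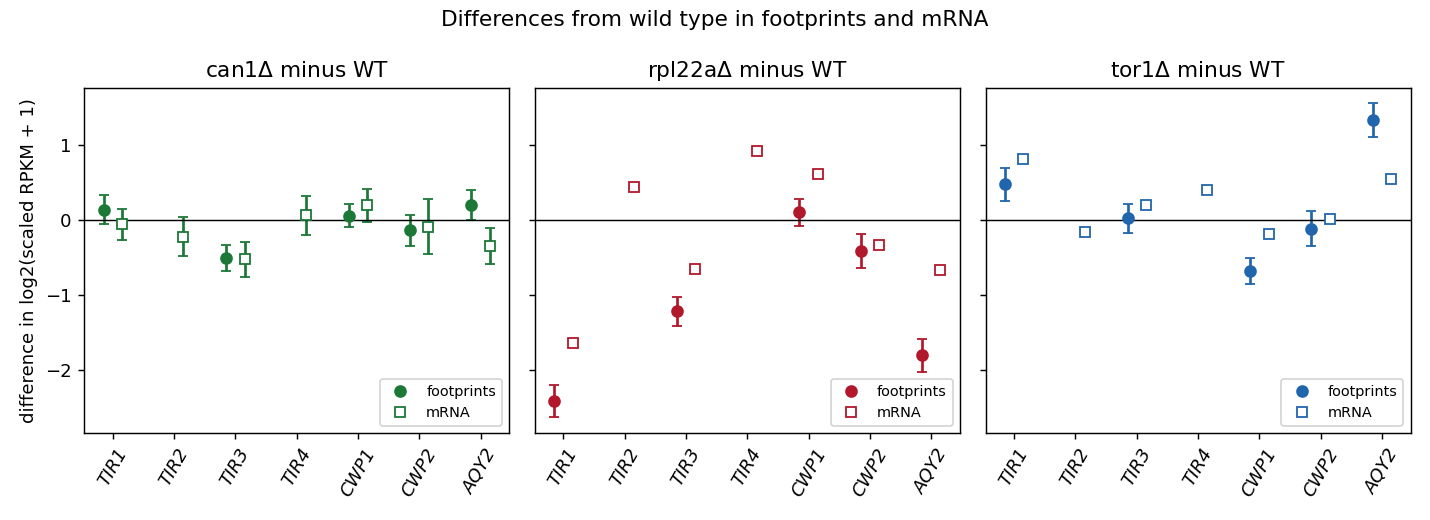
Differences from WT in log2(scaled RPKM + 1) for footprints (filled circles) and mRNA (open squares) in can1Δ, rpl22aΔ and tor1Δ; bars are SE from the fit, and mRNA of rpl22aΔ and tor1Δ is 1 library and has none. Footprints of TIR2 and TIR4 did not pass the filter and are not drawn. In rpl22aΔ TIR1, TIR3, CWP2 and AQY2 are negative in both assays. Footprints lie below mRNA there for every gene drawn in both assays, CWP1 included. For CWP2 the gap (−0.42 ± 0.23 against −0.33) is within the SE. The share of all genes with this order was not computed, so nothing is read from it.

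Footprint levels relative to mRNA were high for TIR1, TIR3 and CWP1 in every strain, and mostly low for TIR2 and TIR4, on few reads. The ratio for TIR1 was 5.77 in can1Δ, 3.17 in rpl22aΔ and 3.96 in tor1Δ, against 5.04 in WT. The WT ratio was above that of 98.2% of the 4897 genes that passed in both assays, whose median was 0.916. TIR3 had 2.40 in rpl22aΔ, 3.41 in can1Δ and 3.04 in tor1Δ, against 3.45 in WT, and CWP1 2.01, 2.55 and 2.06, against 2.88 in WT. CWP2 stood between 1.56 and 1.71 in all 4 strains, above 76.5% to 81.6% of these genes. AQY2 had 0.339 in rpl22aΔ, 1.55 in can1Δ and 1.88 in tor1Δ, against 0.992 in WT. It was the gene of the 5 fitted with the widest spread, on the fewest reads. TIR2 had 0.238 in rpl22aΔ, 0.541 in can1Δ and 0.743 in tor1Δ, against 0.436 in WT. TIR4 had 0.220, 0.251 and 0.357, against 1.41 in WT. Taken over pairs of single libraries, the TIR1 ratio was 2.94 to 3.39 in rpl22aΔ and 3.149 to 4.765 in tor1Δ. Each of these rests on 1 mRNA library. It was 4.067 to 7.49 in can1Δ and 4.18 to 6.40 in WT, so the tor1Δ range overlapped those of both rpl22aΔ and WT. In the interaction fit for can1Δ, differences in this ratio from WT ranged from −0.14 ± 0.31 (CWP1) to 0.55 ± 0.34 (AQY2) on the log2 scale (SE), and that of TIR3 was 0.01.

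Across the 10 footprint libraries the levels of TIR1 and AQY2 were the most alike of the 5 genes (Pearson r = 0.934, Spearman rho = 0.867), while TIR1 and TIR3, second by r (0.820), ranked lower by rho (0.576). CWP1 had negative correlations with TIR1 (r = −0.437, rho = −0.697), TIR3 (−0.465, −0.564) and AQY2 (−0.619, −0.709), and 0.029 and 0.042 with CWP2. Its rpl22aΔ libraries overlapped WT, so it did not rise where TIR1 was lowest. These libraries share strains and sequencing depth, and the values describe the levels given above. The 5 other genes at 10 RPKM or more whose footprints were most like the mean standardised level of the 5 were SIN3, a subunit of histone deacetylase complexes (r = 0.965), PGK1, the glycolytic phosphoglycerate kinase (0.958), URA8, a CTP synthase (0.956), QCR2, of mitochondrial complex III (0.955), and the near-identical glycerol phosphatase genes YIL053W and YER062C, listed as 1 feature (0.951), over 10 libraries and of 3619 genes compared. Their rpl22aΔ means were all below their WT means, 33.0 against 44.9 RPKM for SIN3 and 5616 against 9591 RPKM for PGK1. They were picked for likeness to a profile that was low in rpl22aΔ, so these low means follow from the choice.

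Other genes of wall building, anaerobic regulation and water balance were examined in 8 lists of 126 genes, of which 112 were listed singly and 14 sit in features merged with near-identical genes. The lists were drawn up with earlier results of these data known, so the number of calls in a list is a description. Adjusted p-values are over all genes tested, not over the lists. Of 14 other genes of the Tip1/Srp1 family and related anaerobic mannoproteins, 11 sit in merged features, and of the 3 listed singly 1 passed the filter in footprints, TIP1 (YBR067C), a cold-induced wall mannoprotein. TIP1 stood at 662 and 612 RPKM in rpl22aΔ, against 462, 747 and 623 in WT, and did not pass the test (log2 difference 0.09 ± 0.19, SE). So this relative of TIR1 overlapped WT in the strain where TIR1 was lowest.

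Of 104 list genes tested in rpl22aΔ footprints, 2 rose and 11 fell at an adjusted p under 0.05 (limma, Benjamini-Hochberg over 4900 genes). The background was 8.82% of genes higher and 10.1% lower, 18.9% in all. The median difference of the list genes was −0.14, against 0.01 for all genes. In deposited RPKM without scaling, where the median of all genes shifted to 0.17, 9 rose and 8 fell. Without rpl22aΔ replicate 2, 3 of the 13 calls were left (AGA2, GPI17 and GPD1).

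Among other wall mannoproteins and remodelling enzymes, 2 of 29 tested rose and 3 fell in rpl22aΔ. The tests took no account of listed length, and short genes as a class stood higher in rpl22aΔ, as given above. AGA2, the binding subunit of the a-agglutinin of mating, rose to 333 ± 54 RPKM in rpl22aΔ, against 136 ± 15 in WT (SD, n = 2 and 3, log2 difference 1.28 ± 0.22, limma adjusted p = 0.00296). CCW12, an abundant wall mannoprotein of growing buds, rose by 0.71 ± 0.14 (adjusted p = 0.00596). PIR1, a wall protein linked directly to glucan, fell to 253 ± 2 RPKM, against 463 ± 98 in WT (−0.85 ± 0.17, limma adjusted p = 0.00682), and GAS1, which elongates wall glucan, fell by 0.40 ± 0.12 (adjusted p = 0.0404). The call of GAS1 was lost in 6 of 11 alternatives, among them the unscaled RPKM and leaving out WT replicate 2, WT replicate 3 or rpl22aΔ replicate 2.

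In glucan and chitin synthesis 2 of 13 genes fell and none rose in rpl22aΔ. SMI1, a regulator of glucan synthesis, changed by −0.64 ± 0.12 (limma adjusted p = 0.0052), and GSC2, the alternative glucan synthase, by −0.73 ± 0.22 (adjusted p = 0.0416), a call lost in 8 of 11 alternatives, among them the unscaled RPKM, a pseudocount of 5 and leaving out any of 4 single libraries. Of 23 genes of GPI anchoring and O-mannosylation, which finish mannoproteins of this kind, 2 fell: GPI17, a subunit of the GPI transamidase, by 0.81 ± 0.12 (limma adjusted p = 0.0014), and DCW1, a putative mannosidase of wall assembly, by 0.63 ± 0.13 (adjusted p = 0.00669). This count depends on WT replicate 1: without it 8 of the list were called, all lower, with GPI13, MCD4, PMT1, PMT2, PMT3 and PMT5 added. In unscaled RPKM GPI8 was added as higher. None of 11 genes of the cell wall integrity pathway passed in rpl22aΔ (limma, 2 at an unadjusted p under 0.05), and 2 passed as higher, MID2 and WSC2, in unscaled RPKM.

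None of the 8 regulators of hypoxic and sterol genes, UPC2, ECM22, ROX1 and MOT3 among them, passed the test in rpl22aΔ (limma, 3 at an unadjusted p under 0.05). In unscaled RPKM 3 of them, HAP1, ROX1 and SUT1, passed as higher, as did HAP1 without WT replicate 3 and ROX1 with only the libraries of the 2 strains. Of 12 hypoxic and sterol targets 2 fell, ERG3 (−0.88 ± 0.17, limma adjusted p = 0.00551) and ERG11 (−0.57 ± 0.13, adjusted p = 0.0102), both enzymes of ergosterol synthesis. In tor1Δ footprints HEM13, the oxygen-dependent coproporphyrinogen oxidase of heme synthesis, rose to 251 ± 76 RPKM, against 108 ± 5 in WT (log2 difference 1.17 ± 0.17, limma adjusted p = 0.0497). It was the only one of 104 list genes called there, where 0.0408% of all genes were, and the call was lost without any 1 of the WT libraries or without tor1Δ replicate 1.

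Of 7 genes of water and glycerol transport and the osmotic response that were tested, 2 fell in rpl22aΔ. GPD1, the glycerol phosphate dehydrogenase induced by osmotic stress, stood at 54.9 ± 20.9 RPKM in rpl22aΔ, against 138 ± 4 in WT (SD, n = 2 and 3, −1.37 ± 0.23, limma adjusted p = 0.00269). SLN1, the osmosensor kinase, changed by −0.88 ± 0.22 (adjusted p = 0.0163), a call lost without WT replicate 3 or rpl22aΔ replicate 2 and with a replicate block.

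In can1Δ the list genes changed little. None of 104 passed in footprints (limma, 4 at an unadjusted p under 0.05), where 11 of 4900 genes, 0.224%, were called, or 17 with the replicate number as a block. None passed for translational efficiency (limma, 0 at an unadjusted p under 0.05), where 1 of 4897 genes, 0.0204%, was called. In can1Δ mRNA 1 of 110 list genes rose: SPI1, a wall mannoprotein of stressed and stationary cells, with 14.3 ± 3.0 RPKM in can1Δ against 7.55 ± 1.28 in WT (SD, n = 2 each, log2 difference 0.84 ± 0.23, limma adjusted p = 0.0184). The background was 1.4% of 5281 genes. The call was lost when either can1Δ library or WT replicate 1 was left out, without the filter on low values, and in unscaled RPKM, where the median of all genes shifted to 0.21.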

How the data were processed

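Per the submitters' processing notes, the authors used Bowtie 1.1.2 and genome build R64. Each deposited file gives, per the file headers, the name of a reading frame with its transcript length and RPKM. The listed length of each of the 7 genes was its coding length less 100 bases. Low values fall on steps, from which totals and read numbers were recovered. In the libraries fitted as 1 run, 100% of values of up to 50 reads lay within 0.05 of a whole read. WT footprint replicate 1, WT mRNA replicate 2 and the rpl22aΔ mRNA library were fitted as the mean of 2 runs with 2 step sizes, so their read numbers are approximate. The recovery and the fit were tested on simulated data in which each library was 1 run. The recovery of libraries fitted as 2 runs was therefore not tested.

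RPKM were scaled within an assay by trimmed means of M values (30% on fold, 5% on level). Features were fitted with limma 3.58.1 in R 4.3.3 (statmod 1.5.0, trended robust variances) on log2(scaled RPKM + 1), which understates differences of genes at low levels. Features under 15 reads in total were left out, as were those that reached the RPKM worth 10 reads at median depth in fewer than 2 footprint libraries (1 for mRNA). All footprint strains shared 1 fit, as did all mRNA libraries. The interaction of assay and strain gave translational efficiency.

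The 7 genes and the lists were chosen with earlier results of these data known. Planned p-values for the 7 genes are therefore not printed. Those of list genes are printed with this limit and are adjusted over all genes tested. Other genes are named by rule: up to 4 called genes with the smallest p per list and comparison, the 5 genes most like the mean profile of the 5 fitted genes, and chromosome neighbours. Same-number can1Δ and WT footprint libraries deviated together (r = 0.66, 0.24 and 0.43 over 3623 genes), so the numbers pair them. Sequences and positions come from the RefSeq R64 genome. The sequence before CWP2 is not reported here. Count intervals are exact 95% binomial (Clopper-Pearson).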

Additional observations from a re-analysis of the deposited data

How the results depend on the processing

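The differences of the 7 genes (5 where footprints enter) were recomputed under other settings, 320 values in all. These were other pseudocounts, no scaling or filter, fewer libraries and a replicate block. Of these values 301 moved by less than 1 replicate SD, and 32 changed sign, none in rpl22aΔ footprints. Some could not move: dropping the filter or the other strains leaves a difference as it is, as does the block in can1Δ. In rpl22aΔ and tor1Δ the block gave the same differences as leaving out WT replicate 3. The 301 are therefore no measure of stability. In rpl22aΔ footprints TIR1 ranged from −2.50 to −2.16, TIR3 from −1.39 to −1.04 and AQY2 from −2.28 to −0.97. AQY2 in tor1Δ ranged from 0.92 to 1.74 and CWP1 from −0.83 to −0.53. The number of the 5 genes with every rpl22aΔ library below WT was 4, and 3 without scaling.

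The number of list genes called in rpl22aΔ footprints was 13, and 8 with a replicate block, where 506 of all genes were called against 928. It ranged from 3 to 18 when single libraries were left out. In tor1Δ the 1 call became 0 at a pseudocount of 0.1, without a filter, with only the 2 strains and with a replicate block, and 0 to 2 with single libraries left out. In can1Δ mRNA the 1 call became 0 without scaling and without a filter, and 0 to 1 with single libraries left out. The can1Δ footprint count stayed at 0 in every alternative, as did that of can1Δ translational efficiency, whose median over all genes moved to −0.18 without scaling. Same-number libraries did not deviate together for rpl22aΔ (r = −0.34 and −0.11), tor1Δ (−0.02 and 0.03) or mRNA (0.10), so there the numbers give no pairing. The block could not be applied to the count of genes below WT. Depth limits TIR2, TIR4, YLL053C and AQY2, whose footprint reads were few.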
